A study of Homo sapiens with 12 samples.

Results

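Low oxygen with normal copper was studied by comparing 3 hypoxia libraries with 3 control libraries, out of 12 libraries in the series. All came from EA.Hy926, a human hybrid line whose parents were endothelial cells of the umbilical vein and A549, a lung carcinoma line. The hypoxia cells (hypoxia 1, 2 and 3) spent 8 h in 1% oxygen in a tri-gas incubator, and the control cells (control 1, 2 and 3) stayed in a standard incubator. Neither group received TEPA, a copper chelator. The other 6 libraries serve here as a second pair of groups: TEPA+hypoxia cells had 50 µM TEPA for 16 h and then 8 h of hypoxia, and TEPA cells had the chelator and normal oxygen. A single cell line was used throughout, so the comparison says nothing of other endothelial cells, and no protein, HIF activity or oxygen level was measured.

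Cells sense low oxygen mainly through the hypoxia-inducible factors (HIF). In normal oxygen the EGLN prolyl hydroxylases mark the HIF alpha subunits for degradation through the VHL ubiquitin ligase. In low oxygen the alpha subunits persist, pair with ARNT and bind short elements with an ACGTG or GCGTG core. Their targets carry glucose uptake and glycolysis, release of vascular factors, turnover of mitochondria and feedback on the oxygen sensors. In endothelial cells the same system shapes vessel growth and tone.

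The gene comparison covered 14447 genes with enough counts, of 51141 symbols in the table. Total counts ran from 13406858 to 17648057 in the hypoxia libraries and from 16693713 to 21049891 in the control libraries. The endothelial genes PECAM1 and CDH5 stood at 430.4 to 674 and 274 to 772 CPM, counts scaled to library size, over the 12 libraries. KRT8, a keratin of epithelial cells, was at 929 to 2706 CPM, and the epithelial surface marker EPCAM was at 0.989 CPM or less. The leukocyte gene PTPRC and the fibroblast gene DCN had 0 counts.

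Hypoxia 2 and hypoxia 3 stood apart before any gene was compared. Across genes they correlated with each other at r = 0.992, but with hypoxia 1 at 0.948 and 0.963, while control libraries correlated with one another at 0.993 to 0.997 (genes are not independent replicates). The size of the change also followed transcript length. Genes with transcripts under 1500 nucleotides had a median difference from the control mean of 0.20 in hypoxia 1, 0.88 in hypoxia 2 and 0.72 in hypoxia 3, in log2(CPM + 1). For transcripts over 6000 nucleotides the medians were -0.26, -0.78 and -0.75, while the control libraries stayed within -0.13 to 0.11 in both classes. Hypoxia 1 therefore leaned the same way as the other hypoxia libraries, by less. The part of transcript length in the results was not tested. Values corrected for GC content and length are given beside many of them, as are values without hypoxia 2 and 3. Against the TEPA mean, TEPA+hypoxia 3 leaned the opposite way, at -0.24 under 1500 and 0.29 over 6000 nucleotides. TEPA+hypoxia 1 and 2 were at -0.07 and -0.08 in the short class and at -0.004 and 0.03 in the long class. Values of TEPA+hypoxia against TEPA are given without the correction.

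**Figure D1:**
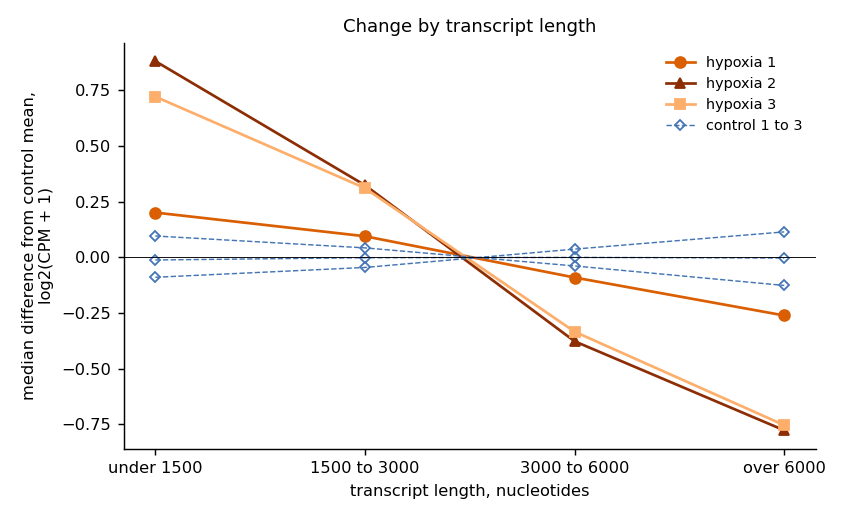
Median difference of each hypoxia library (filled, solid lines) and each control library (open, dashed lines) from the control mean, in log2(CPM + 1), for tested genes in 4 classes of transcript length in nucleotides. Hypoxia 2 and 3 run from 0.88 and 0.72 in the shortest class to -0.78 and -0.75 in the longest, and hypoxia 1 from 0.20 to -0.26.

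A change was taken as shared by all 3 hypoxia libraries where 3 conditions held. The gene passed edgeR's quasi-likelihood test at an adjusted p under 0.05, every hypoxia library lay beyond every control library, and each hypoxia library was at least 1.5-fold from the control mean in log2(CPM + 1). Libraries of the groups did not overlap for 3954 tested genes on the higher side (27.4%) and 4079 on the lower (28.2%). Of the tested genes, 219 (1.52%) were higher and 573 (3.97%) lower by this rule, while the test alone called 4254 (29.4%) higher and 4016 (27.8%) lower. With libraries scaled by their totals alone, the test called 2899 higher and 4833 lower, and the median log2 change of all genes moved by -0.24. The counts of shared genes depended on hypoxia 1, the least changed library: without it they were 3187 and 3546. Without control 3 they were 419 and 891, and without control 2 they were 165 and 360. The test alone called 2347 genes lower without control 2, 2462 without hypoxia 2 and 2103 without hypoxia 3. A fit of only the 6 hypoxia and control libraries called 0 genes either way by edgeR (6939 passed an unadjusted p of 0.05, and the lowest adjusted p was 0.0582). All calls therefore rest on a spread estimated over the 12 libraries. Without hypoxia 2 and 3, hypoxia 1 alone against control gave 43 higher (0.283%) and 35 lower (0.230%) of 15195 genes.

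Of the 219 genes higher in all 3 libraries, 7 belong to the secreted and intracellular HIF target lists used here. Promoters of 5 of them are shown because HIF acts on short elements near gene starts: each is the RefSeq window (GRCh38.p14) from 250 bases before to 50 bases after the gene's start, 5′ to 3′ on the gene's strand. Capitals mark ACGTG and GCGTG and their reverse complements CACGT and CACGC, and ACGTG and CACGT overlap where CACGTG occurs.
ANGPTL4 promoter (chr19:8363905-8364204, plus strand): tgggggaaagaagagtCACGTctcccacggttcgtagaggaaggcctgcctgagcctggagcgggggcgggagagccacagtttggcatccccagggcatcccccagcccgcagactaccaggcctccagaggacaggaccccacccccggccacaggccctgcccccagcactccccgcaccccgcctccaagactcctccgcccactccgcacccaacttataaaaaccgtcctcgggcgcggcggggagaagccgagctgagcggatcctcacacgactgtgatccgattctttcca
DDIT4 promoter (chr10:72273674-72273973, plus strand): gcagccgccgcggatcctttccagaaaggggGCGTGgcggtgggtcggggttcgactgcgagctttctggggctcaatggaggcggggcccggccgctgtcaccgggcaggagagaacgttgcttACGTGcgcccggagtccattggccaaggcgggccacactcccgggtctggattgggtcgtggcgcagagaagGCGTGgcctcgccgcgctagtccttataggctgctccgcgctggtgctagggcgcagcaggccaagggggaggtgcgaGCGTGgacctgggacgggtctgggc
ANKRD37 promoter (chr4:185396591-185396890, plus strand): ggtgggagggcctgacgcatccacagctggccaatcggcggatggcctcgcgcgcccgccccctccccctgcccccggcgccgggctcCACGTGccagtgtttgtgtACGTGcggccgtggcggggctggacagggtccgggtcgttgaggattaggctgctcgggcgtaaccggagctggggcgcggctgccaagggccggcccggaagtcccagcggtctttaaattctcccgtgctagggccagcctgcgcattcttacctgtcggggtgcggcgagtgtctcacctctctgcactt
ADM promoter (chr11:10304823-10305122, plus strand): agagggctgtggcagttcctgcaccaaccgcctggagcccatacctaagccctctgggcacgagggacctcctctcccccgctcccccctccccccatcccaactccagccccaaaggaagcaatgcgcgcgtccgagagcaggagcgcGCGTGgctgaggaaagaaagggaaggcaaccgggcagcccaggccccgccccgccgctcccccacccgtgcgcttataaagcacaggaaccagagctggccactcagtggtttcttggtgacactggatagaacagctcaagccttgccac
BNIP3 promoter (chr10:131981874-131982173, minus strand): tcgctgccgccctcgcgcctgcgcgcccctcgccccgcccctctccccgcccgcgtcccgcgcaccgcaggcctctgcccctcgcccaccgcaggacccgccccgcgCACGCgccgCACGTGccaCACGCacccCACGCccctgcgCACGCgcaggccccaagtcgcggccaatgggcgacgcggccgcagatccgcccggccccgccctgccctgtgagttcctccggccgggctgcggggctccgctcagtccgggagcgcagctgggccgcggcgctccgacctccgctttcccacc
The ANGPTL4 window held 1 element with the ACGTG core, starting 234 bases before the gene's start, and the ADM window held 1 with the GCGTG core. DDIT4 had 1 and 3 of these, ANKRD37 had 3 and 0, and BNIP3 had 2 and 4. Such matches are common: among the 9568 tested genes with a window in the table, 63.7% held either core and 27.2% held ACGTG. Of the 121 genes higher in all 3 libraries with a window, 71.9% held either core and 33.1% held ACGTG. Of the 429 lower genes with one, 64.8% held either and 29.1% held ACGTG. The 5 genes were picked from list members whose window holds a core, so their matches are no result. A match is a description of letters and says nothing of binding.

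ANGPTL4, a secreted inhibitor of lipoprotein lipase, changed most among the leading higher genes. It stood at 520.3, 1122 and 1074 CPM in hypoxia 1, 2 and 3, against 124, 110.4 and 123 CPM in control 1, 2 and 3. The lowest hypoxia library was 4.34-fold above the control mean. Its log2 fold change was 2.93 ± 0.24 (SE, adjusted p = 0.00084), and 2.13 (adjusted p = 1.84e-07) in hypoxia 1 alone against control. With TEPA it was at 347, 359 and 317 CPM in TEPA+hypoxia and at 124.5, 118.5 and 106 CPM in TEPA, so the libraries of low and normal oxygen were apart there as well.

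DDIT4, an inhibitor of mTOR signalling, differed little among the hypoxia libraries, at 18.3, 20.6 and 27.7 CPM against 7.74, 5.56 and 9.33 CPM in control. It rose by 1.56 ± 0.20 (adjusted p = 0.00601), and by 1.28 in hypoxia 1 alone (adjusted p = 0.0223). BNIP3, a receptor for mitophagy, was the most even of the targets, at 89.7, 90.95 and 90.8 CPM in hypoxia against 50.6, 49.8 and 52.5 CPM in control. Its rise was 0.83 ± 0.08 (adjusted p = 0.00221), 0.81 in hypoxia 1 alone and 0.87 once GC content and length were corrected for. In neither gene did libraries of the groups overlap, and hypoxia 1 lay beside hypoxia 2 and 3.

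ANKRD37, an ankyrin repeat gene and a direct HIF-1 target, was at 7.25, 14.03 and 14.3 CPM in hypoxia and 1.84, 2.67 and 3.48 CPM in control, a log2 fold change of 2.16 ± 0.30 (adjusted p = 0.00601). SPAG4, which encodes a nuclear envelope protein, was at 14.7, 35.9 and 28.6 CPM against 6.12, 7.55 and 7.36 CPM (1.91 ± 0.27, adjusted p = 0.00601). ADM, the gene of the vasodilator peptide adrenomedullin, was at 94.98, 110.8 and 119 CPM in hypoxia, against 50.97, 41.3 and 56.7 CPM in control (1.13 ± 0.13, adjusted p = 0.00507). In hypoxia 1 alone the values were 1.46, 1.08 and 0.93, all called. Here hypoxia 1 was the lowest hypoxia library in each of the 3 genes and still above every control. With the GC and length correction ANKRD37 and SPAG4 were at 1.38 and 0.95.

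PFKFB4 and ENO2 make the glycolytic part of the leading genes. PFKFB4, which sets the level of a glycolysis activator, was at 15.01, 14.2 and 14.3 CPM in hypoxia and 6.40, 9.36 and 6.67 CPM in control (0.96 ± 0.16, adjusted p = 0.00601). ENO2, an enolase, was at 21.3, 26.6 and 23.5 CPM in hypoxia and 11.97, 9.99 and 12.8 CPM in control (1.04 ± 0.14, adjusted p = 0.00601). For PFKFB4 hypoxia 1 was the highest library of all 6. In hypoxia 1 alone the changes were 1.01 and 0.88 (adjusted p = 0.0436 for both).

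Other leading higher genes belong to no HIF list used here. JUNB, an immediate early transcription factor of the AP-1 family, was at 24.3, 40.2 and 36.98 CPM in hypoxia against 10.4, 11.1 and 14.9 CPM in control (1.48 ± 0.21, adjusted p = 0.00601). TMEM158, a membrane protein gene first described as induced by Ras, was at 13.6, 25.4 and 28.3 CPM against 7.09, 6.92 and 7.36 CPM (1.65 ± 0.23). TNFRSF25, a death receptor, was at 18.7, 42.3 and 32.4 CPM against 9.58, 9.65 and 10.1 CPM (1.67 ± 0.25). In all 3 genes hypoxia 1 held the smallest rise of the hypoxia libraries. The nuclease genes DNASE1L2 and ENDOV changed by 2.03 ± 0.31 and 1.30 ± 0.19, with hypoxia 1 at 6.15 and 7.51 CPM and control means of 2.46 and 3.47 CPM. In hypoxia 1 alone JUNB, TMEM158 and ENDOV were called (1.00, 0.93 and 1.11), and TNFRSF25 (0.93, adjusted p = 0.0557) and DNASE1L2 (1.33, adjusted p = 0.0679) were not. With the GC and length correction ADM, DDIT4, JUNB and TMEM158 no longer met the rule for a shared change (0.51, 0.90, 0.60 and 0.68), and the other leading higher genes did.

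**Figure D2:**
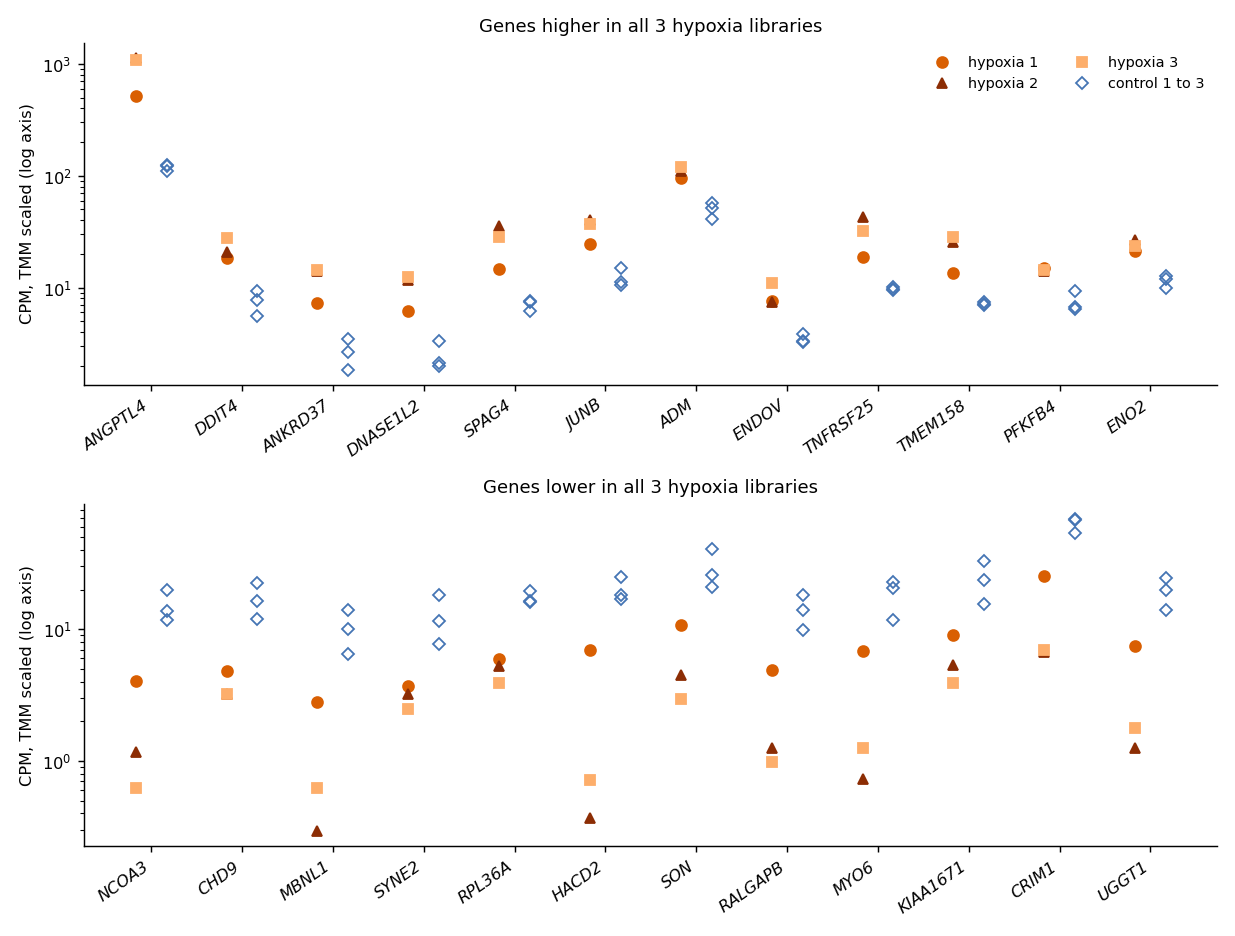
CPM (log axis) of the 12 genes with the largest least-changed hypoxia library among those higher (top) and lower (bottom) in all 3 hypoxia libraries. Hypoxia 1, 2 and 3 are filled symbols at the left of each gene and the 3 controls open diamonds at the right; no hypoxia point overlaps the control range, ANGPTL4 reaches 1122 CPM, and hypoxia 1 lies nearest to the controls for most lower genes.

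The leading lower genes are given next. NCOA3, a coactivator of nuclear receptors, was at 4.08, 1.18 and 0.624 CPM in hypoxia 1, 2 and 3, against 13.7, 19.97 and 11.8 CPM in control, a log2 change of -2.88 ± 0.53 (adjusted p = 0.00601). CHD9, a chromatin remodeller, was at 4.85, 3.23 and 3.21 CPM against 16.4, 22.4 and 12 CPM (-2.15 ± 0.41, adjusted p = 0.00601). MBNL1, a regulator of alternative splicing, was at 2.78, 0.294 and 0.624 CPM against 10.04, 13.96 and 6.43 CPM (-2.96 ± 0.64, adjusted p = 0.00612). All 3 hypoxia libraries were below every control, and hypoxia 2 and 3 were the lowest. SYNE2, a nuclear envelope protein, SON, a splicing cofactor, and MYO6, a myosin, changed by -1.98 ± 0.47, -2.24 ± 0.43 and -2.60 ± 0.58. Hypoxia 1 held 3.69, 10.7 and 6.79 CPM of them, against control means of 12.5, 29.1 and 18.4 CPM.

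The further leading lower genes behaved alike. HACD2, of very long chain fatty acid synthesis, was at 6.99, 0.367 and 0.713 CPM in hypoxia and 18.3, 24.7 and 16.8 CPM in control (-2.82 ± 0.66, adjusted p = 0.00676 by edgeR). With DESeq2 it was not called. UGGT1, which checks glycoprotein folding, RALGAPB, a subunit of a Ral GTPase activator, CRIM1, a membrane regulator of BMP signals, and KIAA1671 changed by -2.43, -2.51, -2.26 and -1.95, with hypoxia 1 at 7.44, 4.92, 25.2 and 9.06 CPM against control means of 19.4, 14.1, 63.0 and 23.98 CPM. None of the 11 leading lower genes other than RPL36A was called in hypoxia 1 alone (log2 -1.89 to -1.32, adjusted p = 0.0557 to 0.161), and with TEPA none of the 11 was lower without overlap. Their longest transcripts measured 4257 to 21842 nucleotides. With the GC and length correction all 11 still met the rule for a shared change, at log2 -2.39 to -1.31. Without hypoxia 1 the changes of MBNL1, HACD2, MYO6 and UGGT1 were -4.52, -5.26, -4.26 and -3.72.

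RPL36A, a ribosomal protein gene, was the exception. It fell to 5.95, 5.29 and 3.92 CPM in hypoxia, against 16.4, 19.3 and 16.2 CPM in control (-1.76 ± 0.17, adjusted p = 0.00185), and the log2 change in hypoxia 1 alone was -1.54 (adjusted p = 0.00778). With TEPA it stood at 10.5, 11.2 and 8.61 CPM in TEPA+hypoxia and 16.98, 18.6 and 19.1 CPM in TEPA, again with no overlap. Its 910-nucleotide transcript is short, and the value with the GC and length correction was -2.14 (adjusted p = 0.000439). RPL36A has a near-identical copy and pseudogenes, so how reads were divided among them is uncertain.

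Across all shared genes hypoxia 1 moved least. The 219 higher genes had median differences of 0.68, 1.69 and 1.41 in hypoxia 1, 2 and 3, and the 573 lower genes of -0.73, -1.70 and -1.61, while the medians of all tested genes lay between -0.04 and 0.00. Hypoxia 1 had the smallest change of the 3 in 198 of the higher and 538 of the lower genes. Only 6 higher and 71 lower genes passed 2-fold in every library. Among genes that the test called higher, hypoxia 1 lay above all controls for 3491, within their range for 728 and below them for 35. Among those called lower, it lay below all controls for 3539, within their range for 477 and above for 0.

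**Figure D3:**
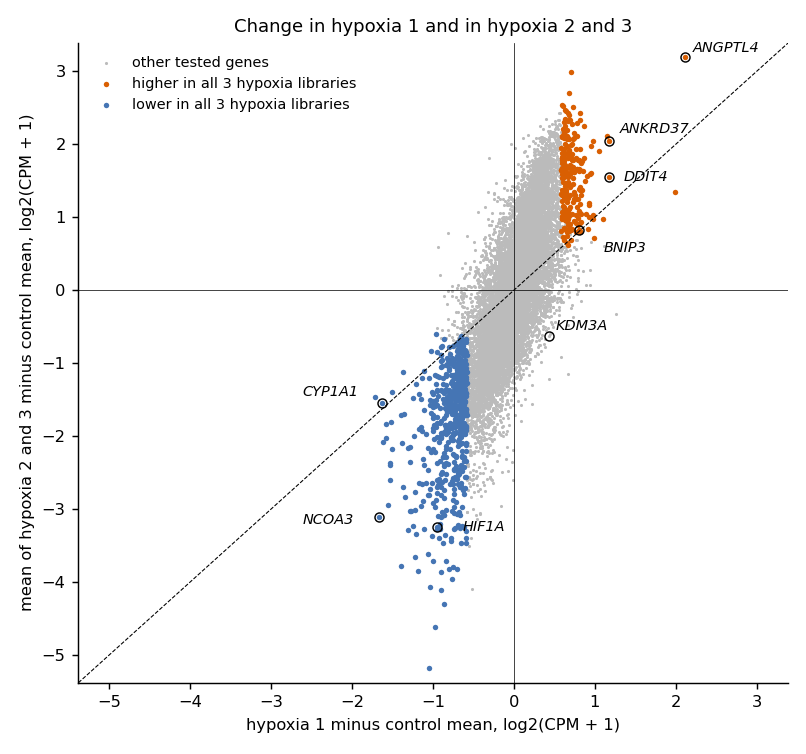
Difference from the control mean in log2(CPM + 1) for each tested gene, in hypoxia 1 (x axis) and as the mean of hypoxia 2 and 3 (y axis), with the dashed line where both are equal. The 219 genes higher and 573 genes lower in all 3 libraries are coloured; most lie farther from 0 on the y axis than on the x axis, with DDIT4, BNIP3 and CYP1A1 near the line and KDM3A on opposite sides of 0.

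The shared genes also differed in kind. Of the higher ones, 139 were protein coding, 26 long noncoding RNAs and 26 pseudogenes by RefSeq type, and of the lower ones, 509, 11 and 21. Protein coding members of the higher set had a median transcript length of 1675 nucleotides and a GC content of 61.3%, those of the lower set 6251 nucleotides and 42.9%, and all tested protein coding genes 3388 nucleotides and 48.7%. Transcripts of 6000 nucleotides or more made up 3 of the 138 higher and 278 of the 508 lower genes that have a length. The test with the GC and length correction called 3037 genes higher (23.4%) and 2731 lower (21.0%) of 13002. With it, 90 genes (0.692%) were higher and 280 (2.15%) lower in all 3 libraries. Of the 175 higher and 545 lower genes that this fit could test, 47 and 248 met the rule with and without the correction.

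The TEPA+hypoxia and TEPA libraries gave a second comparison of low with normal oxygen. The rule for shared genes did not use their levels or their difference, but these libraries entered the estimate of spread behind its test. There, 12.5% of all tested genes were higher and 18.0% lower with no overlap between the groups. Among the 219 shared higher genes 53 (24.2%) were higher and 27 (12.3%) lower, with a median log2 change of 0.07. Among the 573 shared lower genes 22 (3.84%) were lower and 40 (6.98%) higher, with a median of 0.18. For the 47 and 248 genes that also held with the correction, 21 (44.7%) of the higher and 12 (4.84%) of the lower moved the same way without overlap. Each share is read against the 12.5% and 18.0% of all tested genes. By edgeR the TEPA comparison called 9 genes higher (0.0623%) and 5 lower (0.0346%). Among the 21 higher genes were ANGPTL4, ANKRD37, SPAG4, PFKFB4, ENO2 and BNIP3, and the long noncoding RNA LINC01116, which was at 170, 263 and 233 CPM in hypoxia and 92.1, 97.4 and 96.1 CPM in control (1.22 ± 0.14, adjusted p = 0.0049). HSPA1A, a heat shock chaperone with a near-identical neighbour gene, was at 166, 253 and 246 CPM against 96.1, 88.2 and 99.6 CPM (1.23 ± 0.15, adjusted p = 0.00601). LINC01116 and HSPA1A, like the genes of the next paragraph, were chosen after their values were seen.

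CYP1A1 was lower in both pairs of groups. This monooxygenase, induced through the aryl hydrocarbon receptor that also pairs with ARNT, was at 1.81, 2.28 and 1.69 CPM in hypoxia, against 8.38, 8.51 and 6.201 CPM in control (-1.99 ± 0.21, adjusted p = 0.00279). Hypoxia 1 was as low as the others, and its change alone was -2.09 (adjusted p = 0.014). In TEPA+hypoxia it was at 3.44, 2.56 and 2.26 CPM, against 7.96, 8.62 and 7.65 CPM in TEPA. FMN2, a formin that nucleates actin, was at 6.86, 4.04 and 3.12 CPM in hypoxia and 15.4, 18.4 and 15.1 CPM in control (-1.78 ± 0.26, adjusted p = 0.00601). SERPINB2, an inhibitor of plasminogen activators, was at 36.8, 20.1 and 24.3 CPM against 61.5, 73.4 and 44.7 CPM (-1.14 ± 0.22, adjusted p = 0.00601). FMN2 and SERPINB2 were lower with TEPA as well, by -0.75 and -0.44 with no overlap, but edgeR called neither there (adjusted p = 0.433 and 0.698). In hypoxia 1 alone their changes were -1.25 and -0.70.

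HIF targets and glycolysis were followed as 3 lists with 64 tested members of 74. Of these, 27 rose and 5 fell by the test (42.2% and 7.81%, against 29.4% and 27.8% of all tested genes), and 10 (15.6%) were higher in all 3 libraries. The libraries split within the lists. Hypoxia 1 lay above every control for 48 members (75.0%) and below for 5, where 35.7% of all tested genes were above and 35.6% below. Hypoxia 2 and 3 lay both above for 31 members (48.4%) and both below for 20 (31.2%), where 40.2% and 41.7% of all tested genes did so. In TEPA+hypoxia 34 members (53.1%) lay above all TEPA libraries and 5 (7.81%) below, where 12.5% and 18.0% of all tested genes did so. Without hypoxia 2 and 3, 11 members were called higher, where 0.283% of all genes were.

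**Figure D4:**
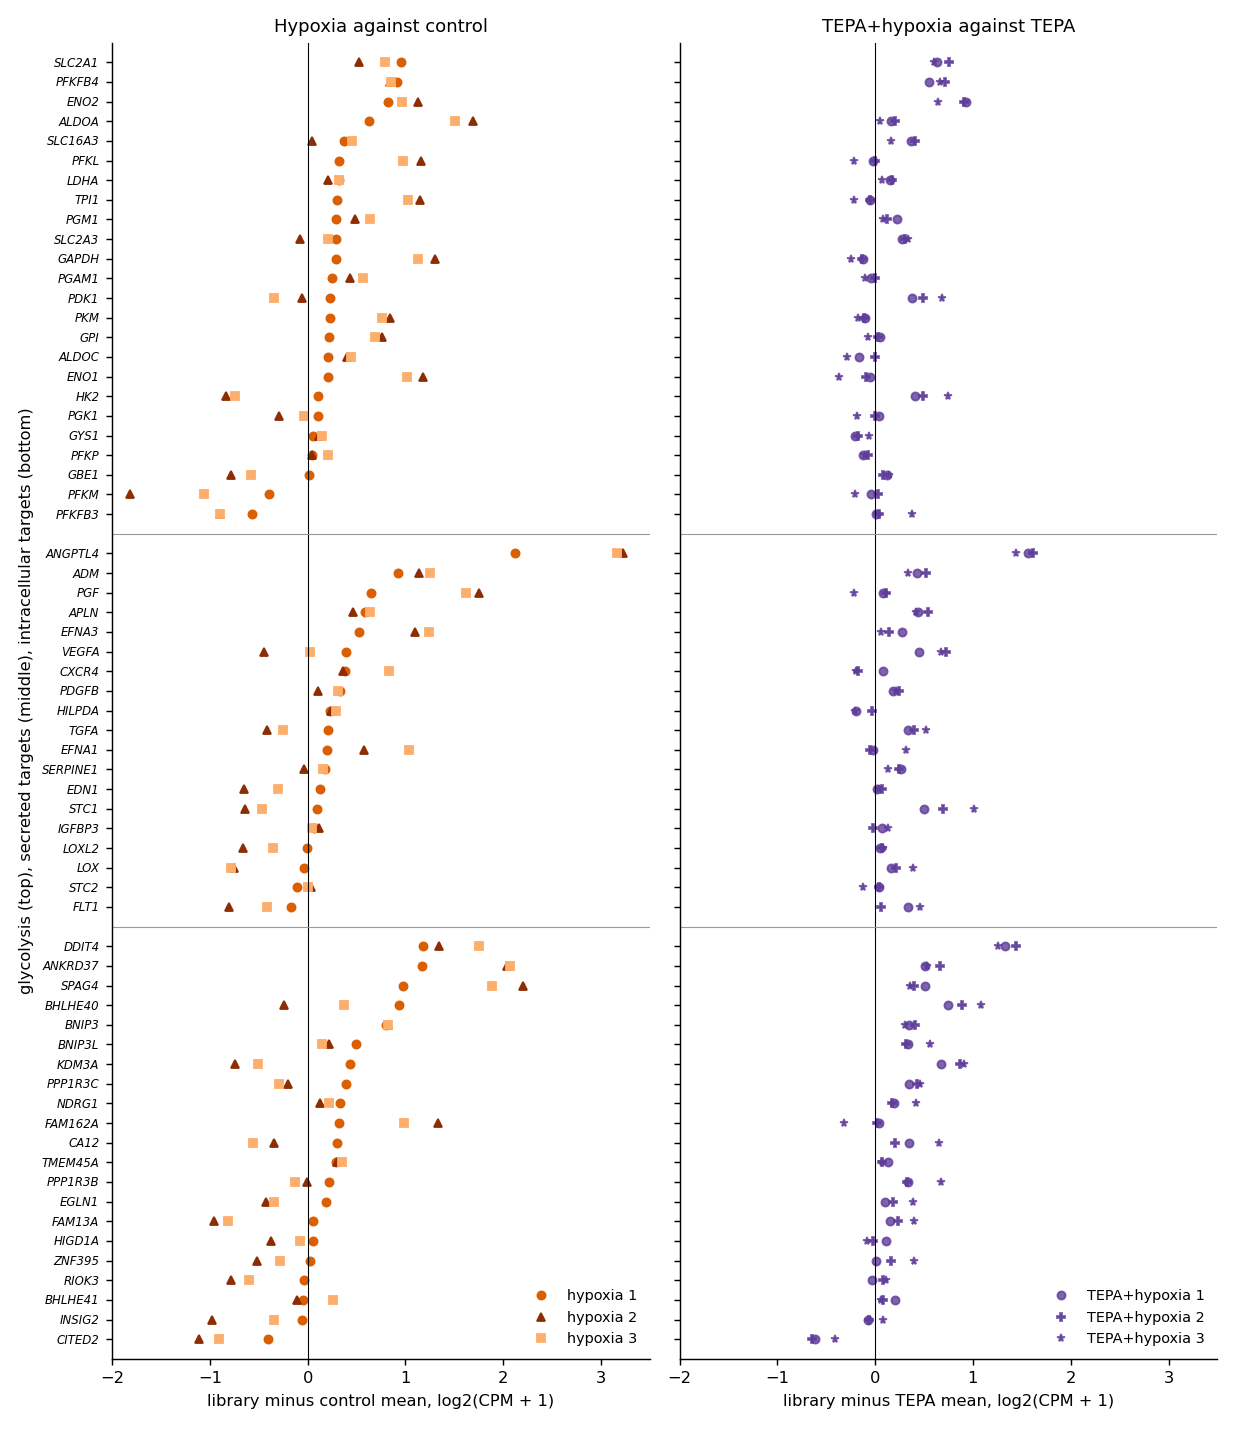
Left, difference of hypoxia 1, 2 and 3 from the control mean, and right, difference of TEPA+hypoxia 1, 2 and 3 from the TEPA mean, in log2(CPM + 1), for the 64 tested members of the glycolysis, secreted and intracellular HIF target lists, ordered by hypoxia 1 within each list. In the left panel 48 members have hypoxia 1 above every control, and for some of these hypoxia 2 and 3 lie to the left of hypoxia 1; in the right panel the 3 libraries of most genes lie closer together.

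Among genes of glucose uptake and glycolysis, 13 of 24 rose and 2 fell (29.4% and 27.8% of all tested genes), and ALDOA, ENO2 and PFKFB4 were shared. ALDOA, an aldolase, was at 2000, 4197 and 3688 CPM in hypoxia and 1305, 1192 and 1395 CPM in control (1.34 ± 0.21, adjusted p = 0.00601; 0.62 in hypoxia 1 alone, adjusted p = 0.0197). With the correction ALDOA was at 0.49 and outside the rule. SLC2A1, the glucose transporter GLUT1, was at 132, 98.2 and 119 CPM against 63.1, 65.8 and 75.1 CPM (0.78 ± 0.12, adjusted p = 0.00601). It had no overlap and was highest in hypoxia 1, but the difference of 0.52 in log2(CPM + 1) in hypoxia 2 was under the 1.5-fold limit, so it is not among the shared genes. The list's median log2 change was 0.46, against -0.01 for all genes, and 0.28 in hypoxia 1 alone. With scaling by totals the list's median was 0.21, and 10 members rose and 2 fell. That scaling put the median of all genes at -0.24, with 2899 of 14447 higher and 4833 lower. PDK1, which slows entry of pyruvate into mitochondria, did not pass the test, at 8.73, 6.98 and 5.53 CPM in hypoxia against 6.31, 8.34 and 7.24 CPM in control (-0.03 ± 0.22, adjusted p = 0.900). With the GC and length correction its value was 0.70 (adjusted p = 0.0146).

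Of the secreted and vascular targets, 7 of 19 rose and 1 fell (29.4% and 27.8% of all tested genes), and ANGPTL4, ADM and PGF were shared. PGF, placental growth factor, was at 104, 224 and 204 CPM in hypoxia and 65.8, 58.9 and 72.9 CPM in control (1.43 ± 0.23, adjusted p = 0.00601; 0.66 in hypoxia 1 alone, adjusted p = 0.0589). With the correction PGF was at 0.55 and outside the rule. EFNA3, an ephrin ligand, was at 12.2, 18.8 and 20.8 CPM against 8.15, 8.06 and 8.46 CPM (1.07 ± 0.18, adjusted p = 0.00601), and its change with the GC and length correction was 0.27 (adjusted p = 0.0856). VEGFA, the main vascular growth factor, differed by library: 14.4, 7.64 and 10.96 CPM in hypoxia, against 11.3, 11.6 and 9.33 CPM in control. Hypoxia 1 lay above the controls, hypoxia 2 below them and hypoxia 3 among them (0.04 ± 0.20, adjusted p = 0.888). In TEPA+hypoxia VEGFA was at 16.5, 20.3 and 19.5 CPM, above every TEPA library (11.8, 12.9 and 10.9 CPM). The median of the list was 0.10, and -0.12 with scaling by totals, where that of all genes was -0.24.

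Of the intracellular targets, 7 of 21 rose and 2 fell, and the rises are near the background share of 29.4% (27.8% of all tested genes fell), and DDIT4, ANKRD37, SPAG4 and BNIP3 were shared. In 5 members, KDM3A, CA12, EGLN1, FAM13A and HIGD1A, hypoxia 1 lay above all controls while hypoxia 2 and 3 lay below them. KDM3A, a histone H3K9 demethylase, was at 78.6, 34.3 and 40.6 CPM in hypoxia and 58.7, 61.96 and 53.7 CPM in control (-0.18 ± 0.24, adjusted p = 0.536), and at 90.2, 103.5 and 106 CPM in TEPA+hypoxia against 52.5, 55.5 and 61.1 CPM in TEPA. BHLHE40, a transcriptional repressor of the clock, was at 105, 45.7 and 70.6 CPM in hypoxia against 59.6, 57.2 and 45.6 CPM in control; it was called in hypoxia 1 alone (0.95, adjusted p = 0.0134) and not in the whole comparison (0.44 ± 0.23, adjusted p = 0.121). CITED2, which competes with HIF for its coactivators, fell, to 160, 98.4 and 114 CPM in hypoxia against 216, 213 and 212 CPM in control (-0.78 ± 0.15, adjusted p = 0.00601). With TEPA CITED2 was lower as well (-0.56, no overlap) but not called by edgeR (adjusted p = 0.285). BHLHE40 and CITED2 were named after their values were seen. The median over the list was 0.04, and 0.33 in hypoxia 1 alone. Scaling by totals turned the list's 0.04 to -0.18, where the median of all genes was -0.24.

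Of 11 tested parts of the oxygen sensing machinery 2 rose and 6 fell, where 29.4% of all tested genes rose and 27.8% fell. The median log2 change was -0.63. With the GC and length correction 4 rose and 4 fell, where 23.4% of the genes tested with it rose and 21.0% fell. The list's median was then -0.10, so the direction of the list did not hold. By the main rule HIF1A, EPAS1 and EP300 were lower in all 3 libraries. With the correction HIF1A and EPAS1, at -1.69 and -0.87, still met the rule, and EP300, at -1.13, did not. HIF1A, the HIF-1 alpha subunit, was at 56.7, 8.08 and 13.99 CPM in hypoxia and 114, 118 and 99.3 CPM in control. Its log2 change was -2.06 ± 0.52 (adjusted p = 0.00854), -3.37 without hypoxia 1 and -0.96 in hypoxia 1 alone (adjusted p = 0.0327). EPAS1, the HIF-2 alpha subunit, was at 177, 105 and 122 CPM in hypoxia, against 270.0, 292 and 309 CPM in control (-1.11 ± 0.18, adjusted p = 0.00601; -0.71 in hypoxia 1 alone, adjusted p = 0.0483). EPAS1 lay lower without overlap in TEPA+hypoxia too, at 214, 222 and 285 CPM against 371, 318 and 330.3 CPM in TEPA. By edgeR that change was not called (adjusted p = 0.5). HIF1A overlapped there, at 87.5, 96.5 and 126 CPM against 117, 99.1 and 111 CPM. EP300 and CREBBP, histone acetyltransferases that HIF recruits, changed by -1.51 ± 0.31 and -1.07 ± 0.22 (adjusted p = 0.00601 for both), with hypoxia 1 at 40.96 and 68.97 CPM and control means of 71.1 and 103 CPM. Neither was called in hypoxia 1 alone (adjusted p = 0.0842 and 0.109). EGLN1, the main oxygen sensor and itself a HIF target, was at 78.1, 50.7 and 53.6 CPM in hypoxia and 62.6, 75.6 and 66.7 CPM in control (-0.17 ± 0.16, adjusted p = 0.377), and at 0.46 with the correction (adjusted p = 0.00524). EGLN3 was listed at 0 counts and HIF3A at 1 count or fewer in every library.

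Histone demethylases of the JmjC family need oxygen for their reaction. Of 16 tested genes in the hand-made JmjC list 2 rose and 9 fell (29.4% and 27.8% of all tested genes). None changed in all 3 libraries by the rule, where 1.52% of all tested genes were higher and 3.97% lower. The median was -0.55, and with the correction it was -0.18. With it 2 rose and 6 fell, against 23.4% and 21.0% of the genes tested with the correction. JMJD6, listed here as a JmjC protein, rose, at 54.7, 87.7 and 81.7 CPM in hypoxia against 38.6, 40.6 and 41.2 CPM in control (0.90 ± 0.15, adjusted p = 0.00601). With the correction JMJD6 was at 1.31 and met the rule for a shared change. KDM2A, KDM4A and KDM5A changed by -0.62 ± 0.14, -0.53 ± 0.13 and -0.79 ± 0.18. Hypoxia 1 held 105.9, 56.9 and 47.8 CPM of them, against control means of 131.6, 67.0 and 63.7 CPM. The edgeR call of KDM5A ended with the GC and length correction (-0.09, adjusted p = 0.334). In hypoxia 1 alone the list's median log2 change was -0.20.

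Stress genes moved both ways. In the integrated stress response, 9 of 19 members rose and 3 fell (29.4% and 27.8% of all tested genes). With the GC and length correction 4 rose and 5 fell, against 23.4% and 21.0% of the genes tested with it. DDIT4, described above, was the list's shared higher member. SLC7A11, the cystine importer, was its shared lower one, at 69.4, 42.6 and 33.3 CPM in hypoxia and 140.1, 172 and 94.4 CPM in control (-1.48 ± 0.29, adjusted p = 0.00601). DDIT3, the transcription factor CHOP, was at 18.1, 35.6 and 31.1 CPM against 11.7, 10.9 and 13.3 CPM (1.24 ± 0.22, adjusted p = 0.00601), and SESN2, an inhibitor of mTORC1, at 33.1, 45.9 and 39.2 CPM against 27.7, 27.4 and 26.95 CPM (0.53 ± 0.12, adjusted p = 0.0064). Both were above every control in hypoxia 1 but not called in it alone. The list's median was 0.30, and -0.09 with the GC and length correction. SLC7A11 was at -0.73 with the correction and still met the rule for a shared change.

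Of the chaperones and stress genes of the endoplasmic reticulum, 7 of 18 rose and 6 fell, near the 29.4% and 27.8% of all tested genes. The list's median of 0.01 became -0.02 with upper quartile scaling and -0.21 with scaling by totals. Over all genes those scalings gave medians of -0.04 and -0.24. MANF and SDF2L1 were higher in all 3 libraries. MANF, a secreted stress factor, was at 140.1, 285 and 247 CPM in hypoxia and 84.1, 76.9 and 96.03 CPM in control (1.39 ± 0.21, adjusted p = 0.00601; 0.71 in hypoxia 1 alone, adjusted p = 0.0277). SDF2L1, a cofactor of that chaperone system, was at 27.6, 86.3 and 75.6 CPM against 16.1, 11.8 and 19.1 CPM (2.01 ± 0.34, adjusted p = 0.00601). With the correction MANF and SDF2L1 were at 0.64 and 0.72, outside the rule. HSPA5, the chaperone BiP, was nearly level among hypoxia libraries at 1967, 2020 and 2100 CPM, against 1486, 1400 and 1507 CPM in control (0.47 ± 0.08, adjusted p = 0.00601; 0.43 in hypoxia 1 alone, adjusted p = 0.0302). The HSPA5 call ended with scaling by totals. ERN1, the stress sensor IRE1, was lower in all 3 libraries, at 4.40, 3.09 and 2.50 CPM against 7.92, 11.8 and 6.49 CPM (-1.38 ± 0.33, adjusted p = 0.00727).

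Immediate early genes rose in 10 and fell in 3 of 25 cases (29.4% and 27.8% of all tested genes). With the GC and length correction 4 rose and 5 fell, where 23.4% of the genes tested with it rose and 21.0% fell. JUNB was the shared one. IER2, KLF2 and FOSL1, all transcriptional regulators, changed by 1.04 ± 0.18, 0.81 ± 0.16 and 0.74 ± 0.16 (adjusted p = 0.00601 for each). Hypoxia 1 stood at 217, 291 and 334 CPM for them, against control means of 159, 231 and 278 CPM. None of the 3 was called in hypoxia 1 alone, and with the GC and length correction KLF2 and FOSL1 were at -0.02 and -0.06. The median of the list was 0.26, and -0.06 with the correction.

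Genes of mitosis fell in 18 and rose in 6 of 31 cases (27.8% and 29.4% of all tested genes), with KIF11, KIF23, CENPF and CENPE lower in all 3 libraries. KIF23, a kinesin of the midbody, was at 26.3, 1.18 and 3.12 CPM in hypoxia and 45.7, 51.4 and 39.0 CPM in control (-2.12 ± 0.71, adjusted p = 0.0252). That call was lost without control 1, control 2 or hypoxia 3 (adjusted p = 0.0554, 0.0652 and 0.0843), the KIF23 change without hypoxia 1 was -4.48, and the value in hypoxia 1 alone was -0.79 (adjusted p = 0.0496). KIF11, the spindle motor Eg5, was at 2.33, 0.441 and 0.0891 CPM against 6.40, 7.66 and 3.71 CPM (-2.53 ± 0.67, adjusted p = 0.0102; -4.39 without hypoxia 1). The kinetochore genes CENPE and CENPF changed by -1.12 ± 0.25 and -2.02 ± 0.59. Hypoxia 1 held 63.7 and 0.324 CPM of them, against control means of 97.8 and 1.12 CPM. CENPF was at 0.294 and 0.178 CPM in hypoxia 2 and 3, and 3 counts make 0.194, 0.220 and 0.267 CPM in hypoxia 1, 2 and 3. CENPF lost its call without hypoxia 3 (adjusted p = 0.0516) and with the GC and length correction (adjusted p = 0.0544). With the correction KIF11 and KIF23 still met the rule for a shared change, and CENPE, at -0.38, did not. The list's median was -0.16, -0.71 and -0.71 in hypoxia 1, 2 and 3.

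Integrins and their partners fell in 10 and rose in 2 of 20 cases (27.8% and 29.4% of all tested genes). ITGB3, the beta subunit of the vitronectin receptor, was at 28.4, 11.5 and 13.01 CPM in hypoxia and 51.1, 55.2 and 36.6 CPM in control (-1.43 ± 0.29, adjusted p = 0.00601). ITGA2, a collagen receptor subunit, was at 119, 38.6 and 39.7 CPM against 181, 222 and 152 CPM (-1.49 ± 0.37, adjusted p = 0.00815). ITGA1, another collagen receptor subunit, changed by -2.40 ± 0.63 (adjusted p = 0.00952 by edgeR), with hypoxia 1 at 1.29 CPM against a control mean of 2.94 CPM. These 3 genes were lower in all 3 libraries, and none was called in hypoxia 1 alone. Without hypoxia 1 the changes of ITGA1 and ITGA2 were -4.56 and -2.27. With the GC and length correction ITGB3, at -1.29, still met the rule for a shared change. ITGA1 and ITGA2, at -1.72 and -0.87, did not.

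Ribosomal protein genes differed between hypoxia 1 and the other hypoxia libraries. By the test 74 of 79 rose and 1, RPL36A, fell, where 29.4% of all tested genes rose and 27.8% fell, and the median difference was 0.27 in hypoxia 1, 1.71 in hypoxia 2 and 1.35 in hypoxia 3. None of them was higher in all 3 libraries by the 1.5-fold rule, where 1.52% of all tested genes were. Hypoxia 1 still lay above all controls for 74 (35.7% of all tested genes). RPS21 was at 226, 831 and 554.5 CPM in hypoxia against 139, 129.5 and 183 CPM in control (1.84 ± 0.35, adjusted p = 0.00601). RPL38 and RPS15 changed by 1.80 ± 0.35 and 1.66 ± 0.32. Hypoxia 1 held 268.6 and 869.5 CPM of them, against control means of 182.8 and 633 CPM. In hypoxia 1 alone the list's median log2 change was 0.27. With TEPA 50 of the 79 were lower in TEPA+hypoxia without overlap, where 18.0% of all genes were. These are short transcripts (median 1171 nucleotides), and the list's median with the GC and length correction was 0.71. The TEPA values are not corrected, and TEPA+hypoxia 3 had a median of -0.24 over all genes under 1500 nucleotides.

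Transcripts of the mitochondrial genome fell in 8 and rose in 1 of 13 cases (27.8% and 29.4% of all tested genes). Hypoxia 1 lay below every control for 12 of the 13 (35.6% of all tested genes), with a median of -0.37, the same as in hypoxia 3 and lower than the -0.24 of hypoxia 2. ND4L and ND5, of complex I, and ATP8, of the ATP synthase, changed by -1.55 ± 0.37, -1.002 ± 0.20 and -1.17 ± 0.28 (adjusted p = 0.0069, 0.00601 and 0.00718). Hypoxia 1 held 619.5, 1377 and 1067 CPM of them, against control means of 1018, 2062 and 1503 CPM. ND3 rose by 0.75 ± 0.17 (adjusted p = 0.00617), at 188, 314 and 230.2 CPM in hypoxia against 141, 146 and 148 CPM in control. In hypoxia 1 alone ND1 was the 1 member called (-0.50, adjusted p = 0.047). Several of these genes overlap or adjoin on the same RNA, so their reads are not fully separable. The GC and length correction covered 0 of the 13.

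Markers of cell types were followed as well. Of 26 tested endothelial markers 12 rose and 9 fell, where 29.4% of all tested genes rose and 27.8% fell. With the GC and length correction 7 rose and 8 fell, against 23.4% and 21.0% of the genes tested with it. KDR, the VEGF receptor 2, was lower in all 3 libraries at 5.24, 2.87 and 4.37 CPM in hypoxia, against 10.2, 12.1 and 8.23 CPM in control (-1.29 ± 0.22, adjusted p = 0.00601). TEK, the angiopoietin receptor, was at 32.7, 2.28 and 3.65 CPM against 54.9, 61.7 and 45.3 CPM (-2.04 ± 0.69, adjusted p = 0.0257), a call lost without control 1, control 2, hypoxia 2 or hypoxia 3 (adjusted p = 0.0565, 0.067, 0.0524 and 0.0815). Without hypoxia 1 the TEK change was -4.24. With the GC and length correction KDR and TEK were at -0.78 and -1.69, outside the rule for a shared change. SOX18 and EGFL7 rose by 1.42 ± 0.29 and 1.46 ± 0.29. Hypoxia 1 held 23.4 and 624 CPM of them, against control means of 15.5 and 458.5 CPM. With the GC and length correction SOX18 and EGFL7 were at 0.42 and 0.54. Of 10 tested epithelial markers 4 rose and 0 fell: KRT81, KRT18, KRT7 and KRT8, by 1.85 ± 0.33, 1.25 ± 0.25, 1.14 ± 0.25 and 0.90 ± 0.22. With the GC and length correction 4 rose and 1 fell (23.4% and 21.0% of the genes tested with it), and the median of the list went from 0.62 to 0.12. KRT81, KRT18, KRT7 and KRT8 were then at 1.055, 0.54, 0.24 and 0.66. With the replicate block added to the correction KRT7 was not called. KRT18 was at 1555, 3862 and 3343 CPM in hypoxia and 1283, 1110 and 1297 CPM in control. KRT7, the largest part of the epithelial sum, was at 4894, 11613 and 9851 CPM against 3964, 3337 and 4637 CPM. For KRT81 and KRT8 hypoxia 1 was at 2.85 and 1240 CPM, against control means of 1.46 and 1123 CPM. The 21 epithelial markers summed to 7945, 18401 and 15780 CPM in hypoxia 1, 2 and 3 and to 5674 to 7451 CPM in control, and the 29 endothelial ones to 7412, 12195 and 11110 CPM against 6407 to 7385 CPM. The fibroblast and mural sum was 129, 92.7 and 94.9 CPM against 135 to 138 CPM, and the leukocyte sum 168, 205 and 191 CPM against 154 to 164 CPM. None of the named markers was called in hypoxia 1 alone. In bulk libraries fewer cells of a type and less RNA per cell cannot be told apart, and the part of these shifts in the other results was not tested.

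**Figure D5:**
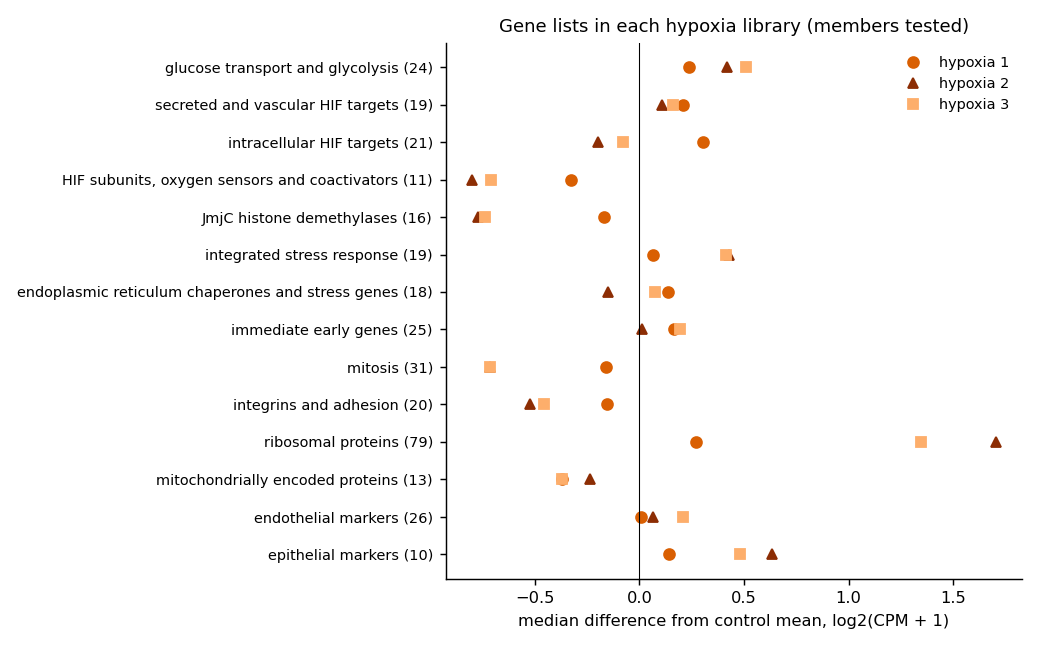
Median difference from the control mean in log2(CPM + 1) over the tested members of each described list (number in brackets), in hypoxia 1, hypoxia 2 and hypoxia 3. The intracellular HIF targets have hypoxia 1 at 0.30 and hypoxia 2 and 3 at -0.20 and -0.08; ribosomal proteins have 0.27 in hypoxia 1 and 1.71 and 1.35 in hypoxia 2 and 3.

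Some genes moved in opposite directions within the hypoxia group. For 429 tested genes (2.97%) hypoxia 1 lay above, and hypoxia 2 and 3 below, all controls, and for 398 (2.75%) the reverse held. Genes of the first kind with a large least difference included KDM3A, NIPSNAP3A, POLI, FAM8A1 and ALX1. NIPSNAP3A, a mitochondrial protein, was at 15.7, 7.42 and 7.84 CPM in hypoxia and 13.3, 11.8 and 9.79 CPM in control, and POLI, a translesion DNA polymerase, at 21.03, 11.9 and 10.5 CPM against 17.3, 16.3 and 14.7 CPM. Of the second kind, SLC38A5, a glutamine carrier, was at 3.69, 11.4 and 7.75 CPM against 5.94, 6.01 and 4.75 CPM, and SNX8, a sorting nexin, at 35.8, 71.6 and 62.1 CPM against 47.2, 43.2 and 47.99 CPM. SLC27A5, a bile acid ligase, was at 3.69, 22.8 and 16.5 CPM against 4.56, 5.33 and 4.58 CPM, and among the genes named here for opposite directions it was the 1 that the test called (1.56 ± 0.47, adjusted p = 0.0159). The SLC27A5 call was lost without control 1, hypoxia 2 or hypoxia 3 (1.52, 1.02 and 1.44; adjusted p = 0.0515, 0.0868 and 0.0534), and the value in hypoxia 1 alone was -0.39. DISP1, RPL23A and RPS28 complete the second set. A group mean hides such genes, so each library is given.

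The TEPA libraries give a further look at these genes, without the GC and length correction. Of the 429, 123 (28.7%) were higher in TEPA+hypoxia than in TEPA without overlap and 20 (4.66%) lower, and of the 398, 128 (32.2%) were lower and 26 (6.53%) higher, where 12.5% of all tested genes were higher and 18.0% lower. The difference between the responses without and with TEPA was tested as an interaction in the same fit. It was called for 5611 genes (38.8%), among them 169 of the 219 shared higher and 505 of the 573 shared lower genes. These genes were chosen by their difference between hypoxia and control, which is part of the interaction, so their counts and values are a description and no test. By edgeR it was called for 0 genes without hypoxia 2 and 3 (4117 at an unadjusted p under 0.05) and for 0 without control 1 (6599 at an unadjusted p under 0.05). It was also called for 0 without control 2, hypoxia 3, TEPA+hypoxia 3 or TEPA 2, and for 9758 without hypoxia 1. DDIT4, PFKFB4 and ENO2 had differences of 0.11, 0.24 and 0.15, with SE of 0.28, 0.22 and 0.19, and ANGPTL4 one of 1.37 ± 0.32.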

How the data were processed

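Messenger RNA was measured in 12 libraries of the EA.Hy926 line, 3 in each of 4 groups, taken from the labels. Per the labels' protocols, directional libraries were made from poly(A) RNA after TRIzol extraction. Per the submitters' processing notes, reads were aligned with HISAT2 2.1.0 to GRCh38 and DESeq was used; for the read counter, its annotation and its use of strand, nothing is stated in the labels or notes. Antisense and overlapping genes are therefore uncertain. The deposited table holds raw counts per gene symbol, with no normalization. Total counts per library ran from 13406858 to 24778944, and 3 counts in a library correspond to 0.118 to 0.267 CPM. That floor covers counting error only.

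The tools were R 4.3.3, edgeR 4.0.16, limma 3.58.1 and DESeq2 1.42.0. Genes were filtered with filterByExpr by group, scaling was by TMM, and the model held 1 mean per group over all 12 libraries. The factors were 1.03, 0.772 and 0.838 in hypoxia 1, 2 and 3, so CPM in hypoxia 2 and 3 are higher than totals alone would give. Each gene was tested with the two-sided quasi-likelihood F-test, with Benjamini-Hochberg adjustment over all genes tested and a threshold of 0.05. CPM use the scaled library sizes, differences for single libraries use a pseudocount of 1, and SE is the log2 fold change divided by the root of F. "Hypoxia 1 alone" is the fit without hypoxia 2 and 3, where the lone library is assumed to vary like the other groups. The GC and length correction fits splines with 4 degrees of freedom per library on the longest GENCODE transcript. Coordinates and lengths come from GENCODE 29 on GRCh38. Of the symbols, 40269 matched RefSeq directly and 1992 through an older symbol. The pipeline was tested on simulated counts.

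Of 30 hand-made gene lists, 14 are described here, by counts and medians. Named are the 12 higher and 12 lower protein coding genes (mean of 5 CPM or more) whose least changed hypoxia library differs most from control, up to 4 members per described list (shared ones first, then those of smallest p), HIF1A, EPAS1, VEGFA and PDK1, and 6 genes of each opposite pattern. A few genes that this rule names are not reported here. The members, lists and rules were chosen with earlier results of these data known. Nothing in the labels tells if replicates came from separate cultures, so p-values measure only the spread between these libraries. Alternatives were other scalings, filters, pseudocounts and fold limits, DESeq2, limma-voom with and without quality weights, a block for the replicate number, the 6 hypoxia and control libraries by themselves, and each library left out.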

Additional observations from a re-analysis of the deposited data

Results flagged for a closer look

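The change in hypoxia against control differed from that in TEPA+hypoxia against TEPA by edgeR's interaction test (adjusted p under 0.05) for 22 of the 28 genes compared, where 38.8% of all tested genes were called. The 28 are the leading genes with HIF1A, EPAS1, VEGFA and PDK1. Of them, 24 were chosen by their difference between hypoxia and control, which is part of the interaction, so the count and values are a description and support nothing. Values are the first log2 change minus the second. Among genes higher in hypoxia the difference was 1.37 for ANGPTL4, 1.46 for ANKRD37, 1.48 for DNASE1L2, 1.44 for SPAG4, 1.02 for JUNB, 0.69 for ADM, 1.09 for ENDOV, 1.44 for TNFRSF25 and 1.36 for TMEM158. Among lower genes it was -3.19 for NCOA3, -2.96 for CHD9, -3.24 for MBNL1, -2.92 for SYNE2, -0.92 for RPL36A, -3.08 for HACD2, -2.69 for SON, -2.92 for RALGAPB, -3.01 for MYO6, -2.30 for KIAA1671, -2.45 for CRIM1, -2.87 for UGGT1 and -1.98 for HIF1A. Without hypoxia 2 and 3 the interaction was called for 0 genes by edgeR (4117 at an unadjusted p under 0.05).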

How the results depend on the processing

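Counts of genes called higher and lower (4254 and 4016) stayed within 1.5 times under RLE and upper quartile scaling, library totals, both other filters, DESeq2 (4404 and 4295), limma-voom (4052 and 4271) and limma-voom with quality weights, where the interaction count was 10660. With 1 library left out they ran from 2853 to 5085 and from 2103 to 5538, those shared by all 3 libraries from 165 to 3187 higher and from 360 to 3546 lower, and the interaction from 0 to 9758. Without hypoxia 2 and 3, edgeR called 43 and 35 genes, 36 and 26 of them past the size limit, and 0 interactions. With only the 6 hypoxia and control libraries all 4 counts were 0 (6939 at an unadjusted p under 0.05), by edgeR. With the GC and length correction 90 and 280 genes were shared and 2382 interactions called, and 47 and 248 genes were shared with and without it, an alternative chosen after seeing the data. A limit of 2-fold left 6 and 71 shared genes, no minimum size 3479 and 3533, and a pseudocount of 0.25 gave 456 shared higher genes. The cause of these moves was not tested.

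Same-numbered hypoxia and control libraries deviated with r = 0.13, -0.48 and 0.50. These values cannot tell if replicate numbers pair the samples, since hypoxia 2 and 3 had nearly equal r with each control. With control 2 both were at -0.48, and with control 3 they were at 0.51 and 0.50. With the replicate block the counts were 3924 and 3770, 219 and 573 shared, and 4542 interactions. The block with the GC and length correction gave 2724 and 2512, 90 and 278 shared, and 0 interactions by edgeR (5072 at an unadjusted p under 0.05).

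Some named genes changed sign, and the cause was not tested. With the correction, and then with the block as well, PDK1 was at 0.70 and 0.71, POLI at 0.50 and 0.50, EGLN1 at 0.46 and 0.46, KLF2 at -0.019 and -0.0206 and FOSL1 at -0.064 and -0.0618. SLC27A5 was at -0.39 without hypoxia 2 and 3. All 80 called named genes lost their call with only the 6 libraries. With DESeq2, HACD2, KIF23 and TEK were not called, and with limma-voom SLC27A5 was not called.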

Other observations

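The genes below were chosen after their values were seen. Small nucleolar RNAs (snoRNAs), which guide modification of ribosomal RNA, fell in 45 and rose in 16 of 149 tested cases. Of all tested genes 27.8% fell and 29.4% rose, so the snoRNA share that fell is near the background and the share that rose is below it. By the rule for shared changes 11 of the 149 were lower and 0 higher in all 3 hypoxia libraries, where 3.97% and 1.52% of all tested genes were. SNORD22 and SNORD25 to SNORD31 all fell (8 of 8, against 27.8% of all tested genes), with a median log2 change of -1.81 and median differences of -0.70, -1.70 and -1.65 in hypoxia 1, 2 and 3. The 6 of them with a position in GENCODE lie within the span of SNHG1, chr11:62851988-62855914 on the minus strand of GRCh38. SNORD25 was at 0.712, 0.367 and 0.356 CPM in hypoxia and 3.54, 3.58 and 3.07 CPM in control (-2.77 ± 0.27, adjusted p = 0.00185 by edgeR). SNHG1 itself did not pass the test, at 92.9, 115 and 109 CPM in hypoxia against 92.9, 87.1 and 96.7 CPM in control (0.19 ± 0.11, adjusted p = 0.154). In TEPA+hypoxia 6 of the 8 were below all TEPA libraries, where 18.0% of all tested genes were. SnoRNAs are not polyadenylated and lie inside another gene, so their counts after poly(A) selection are low and uncertain.

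Mitochondrial tRNAs moved both ways in hypoxia, with 4 of 15 higher and 4 lower, near the 29.4% and 27.8% of all tested genes. In TEPA+hypoxia 9 of the 15 were below all TEPA libraries, where 18.0% of all tested genes were. TRNV was at 0.647, 0.735 and 0.0891 CPM in hypoxia and 3.09, 4.71 and 3.94 CPM in control (-2.91 ± 0.49, adjusted p = 0.00601 by edgeR), and at 0.990, 0.171 and 0.607 CPM in TEPA+hypoxia against 5.33, 4.63 and 4.39 CPM in TEPA. SPACA6P-AS, an antisense RNA, was at 4.53, 2.06 and 3.12 CPM in hypoxia and 0.322, 0.340 and 0.522 CPM in control (3.04 ± 0.41, adjusted p = 0.00601 by edgeR). It was highest in hypoxia 1, where its change alone was 3.52 (adjusted p = 0.00261), and stood at 4.37, 4.79 and 4.58 CPM in TEPA+hypoxia against 1.06, 0.405 and 0.475 CPM in TEPA. Without the strand setting of the counting, its reads and those of the gene opposite cannot be told apart.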
